A study of Mus musculus with 30 samples.

Results

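The comparison covers the 10 of 30 RNA sequencing libraries that were made from WT bone marrow-derived dendritic cells (BMDCs) and whose names end in 24h (5 libraries) or ctrl (5 libraries). They were chosen by library name and genotype, and each library named 24h was paired with the library named ctrl that carries the same culture number. BMDCs are grown out of mouse bone marrow with the growth factor GM-CSF. According to the methods of the study, the WT mice were C57BL/6J mice of 6 to 12 weeks. By the labels the cells spent 6 days in culture and then received a pulse of 500 µM ATP for 30 min, with harvest directly or after 24 hours. The libraries named 24h are placed at 24 hours after ATP by both their name and their treatment field. The treatment field of the libraries named ctrl reads 30 min of ATP, while that of another set, named 0p5h, reads vehicle. Name and field conflict for both, and all sets are called by their names. No vehicle library at 24 hours is labelled, so the ATP pulse and the added time in culture cannot be told apart in this comparison. The cultures, called by the end of their library names, are s846, s850, s855, s856 and s864, and values per library are given in that order throughout. The labels do not say whether a culture is 1 animal. In the paired test, p-values set the change within a culture against how much that change varied among these cultures, and differences in level between cultures are taken out.

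Dendritic cells (DCs) take up antigen in tissues and carry it through lymph vessels to lymph nodes, where they prime T cells. On the way they mature: they lower receptors for uptake and for inflammatory chemokines, and raise CCR7, costimulatory molecules and the actin bundling that motility needs. Extracellular ATP, released by damaged cells, acts on DCs through P2X ion channels and P2Y G protein-coupled receptors. Ectoenzymes on the cell surface break it down to adenosine, which has receptors of its own. BMDC cultures contain a mixture of maturing DCs and macrophage-like cells, and in RNA from such a mixture fewer cells of a type and less RNA per cell cannot be told apart.

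Library depth ranged from 12988438 to 26425018 counts on genes. Mitochondrially encoded genes took 1.07% to 4.49% of counts in the libraries named ctrl and 0.706% to 5.61% in those named 24h, and cultures s850 and s864 held the highest shares in both sets. The libraries of culture s846 were sequenced in different lanes, according to the column headers, and those of each other culture in the same lane. The summed level of 13 DC markers, which include class II genes, *Flt3* and *Ccr7*, ranged from 31200 to 48200 CPM (counts scaled to a common library total after TMM normalisation) in the libraries named ctrl and from 24600 to 42700 CPM in those named 24h. *Cd209a*, a marker of monocyte-derived DCs, was at 0.433 CPM or below in all 10 libraries. The summed level of 16 macrophage markers ranged from 1420 to 2730 and from 1310 to 2380 CPM, that of 7 monocyte markers from 165 to 415 and from 168 to 229 CPM, and that of 14 granulocyte markers from 191 to 654 and from 204 to 837 CPM. Of the macrophage markers, 1 passed an adjusted p under 0.05, *Cd14*, and of the monocyte markers 2, *Ly6c2* and *Ccr2*, all lower in the libraries named 24h. Of the DC markers *Itgax* was lower and *Flt3* higher, and of the granulocyte markers *Ltf* was higher. The part of cell composition in the changes below was not tested.

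Which genes differed between the libraries named 24h and those named ctrl was tested on 13176 genes with the culture as a block. Genes were called where edgeR's quasi-likelihood test gave a Benjamini-Hochberg adjusted p under 0.05 and the level changed 2-fold or more. By this rule 122 genes were called (0.926% of those tested), of which 52 were higher (0.395%) and 70 lower (0.531%) in the libraries named 24h. By adjusted p alone 797 genes passed (6.05%), 317 higher (2.41%) and 480 lower (3.64%). The median log2 fold change of all genes tested was -0.00786. Most of the called genes had low levels, with a median of 3.12 CPM over the 10 libraries, and 23 of them had a mean under 1 CPM. In 116 of the 122, all 5 cultures moved the same way. The 2 sets of libraries did not overlap for 31 of the 122, against 252 genes (1.91%) of all those tested.

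**Figure D1:**
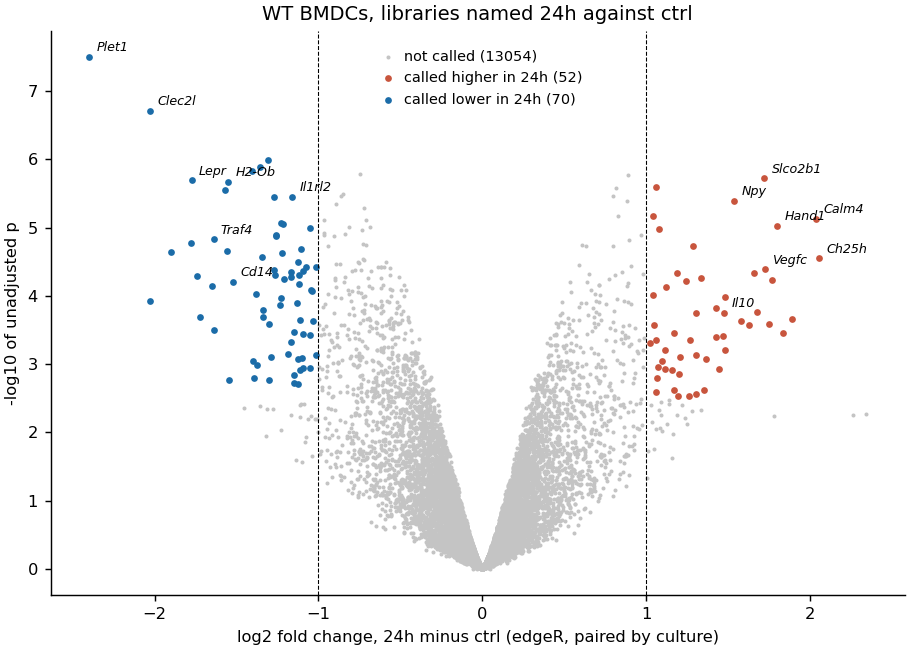
Log2 fold change in libraries named 24h relative to ctrl for each of 13176 genes (x axis) against -log10 of its unadjusted p (y axis), from edgeR with the culture as a block. The 52 genes called higher and 70 called lower are coloured, and *Plet1* lies farthest to the left and highest.

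Without the culture as a block, 2 genes were called, *Plet1* and *Il1rl2*, each with an adjusted p of 0.0322, and of the 151 genes examined singly that passed 0.05 with the block no other did (lowest adjusted p 0.0816). Leaving out culture s846 lowered the number called to 26 higher and 43 lower, and the number past an adjusted p of 0.05 from 797 to 186. Without culture s855 or s856, 31 and 34 were called higher. With cultures s850 and s864 left out together, an alternative chosen after the data were seen, 130 were called higher and 114 lower, among them 96 of the 122. Against the libraries named 0p5h in place of ctrl, 53 were called higher and 175 lower, among them 77 of the 122.

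Among called genes with a mean of 1 CPM or more and 1 direction of change across the 5 cultures, the largest rise was that of *Ch25h*, the enzyme that makes 25-hydroxycholesterol from cholesterol. It had 2.18, 5.51, 2.91, 4.09 and 1.46 CPM in the libraries named ctrl and 9.54, 8.49, 11.8, 26.7 and 11.3 CPM in those named 24h. Every library named 24h lay above every library named ctrl, with the highest value in culture s856 (log2 fold change 2.06, standard error 0.28, adjusted p = 0.00638, edgeR). *Ch25h* (ENSMUSG00000050370, chr19:34473786-34475135, reverse strand of GRCm38) overlaps *Gm26902*, also called higher (1.33), and reads that lay on both genes were counted for neither. *Calm4*, a calcium-binding protein of the calmodulin family best known from skin, had 1.84, 2.4, 1.65, 1.71 and 1.01 CPM in the libraries named ctrl and 7.4, 4.75, 10.3, 10.7 and 3.37 CPM in those named 24h. These sets did not overlap either, and the rise was smallest in culture s850 (log2 fold change 2.04, standard error 0.24, adjusted p = 0.00385).

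Genes of secreted factors were among these rises. *Vegfc*, the growth factor of lymphatic vessels, had 0.406, 1.73, 0.383, 0.714 and 0.906 CPM in the libraries named ctrl and 2.09, 3.13, 1.74, 3.16 and 2.66 CPM in those named 24h. The sets did not overlap, though by a narrow margin between culture s850 named ctrl and culture s855 named 24h (log2 fold change 1.72, standard error 0.25, adjusted p = 0.00697). *Npy*, a neuropeptide, had 1.66, 1.46, 0.613, 0.754 and 4.88 CPM in the libraries named ctrl and 4.42, 4.36, 1.82, 3.4 and 11.6 CPM in those named 24h. Culture s864 was highest in both sets, which overlapped, while all 5 cultures rose (log2 fold change 1.54, standard error 0.17, adjusted p = 0.00268). *Dkk2*, an inhibitor of Wnt signalling, rose from 1.82 ± 1.35 to 4.44 ± 2.07 CPM (mean ± SD, n = 5, log2 fold change 1.47, standard error 0.28, adjusted p = 0.0168).

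*Slco2b1*, a transporter of organic anions such as steroid conjugates, had 0.664, 1.85, 0.46, 1.75 and 4.28 CPM in the libraries named ctrl and 2.47, 4.75, 2.15, 7.18 and 11.4 CPM in those named 24h. Its level in culture s864 was the highest of either set, so the sets overlapped, while the rise within a culture was similar in all 5 (log2 fold change 1.72, standard error 0.17, adjusted p = 0.00262). The remaining genes of largest rise were *Hand1*, a basic helix-loop-helix factor (1.80), *Atp1b1*, a subunit of the sodium pump (1.77), *Nxpe5* (1.68), *Hpgds*, the haematopoietic synthase of prostaglandin D (1.48), *Atcay* (1.48) and *Calb2*, the calcium-binding protein calretinin (1.45), with adjusted p from 0.00407 to 0.0308. Their mean levels in the libraries named 24h lay between 1.69 and 4.87 CPM. *Atp1b1* overlaps *Nme7* in the annotation, which had more counts. By p, *Gm37711* (1.06) and *Tpbgl* (1.04) were also among the 5 called rises of lowest p. Of the 14 genes in these paragraphs that the naming rule gave, leaving out 1 culture took the adjusted p above 0.05 for *Hpgds* (culture s846, s850 or s855, adjusted p up to 0.0781), *Dkk2* (culture s846 or s856, adjusted p up to 0.0814) and *Calb2* (culture s846, s855 or s856, adjusted p up to 0.134), and against the libraries named 0p5h *Atcay* and *Dkk2* did not pass.

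The largest fall was that of *Plet1* (ENSMUSG00000032068, chr9:50494525-50505482, forward strand of GRCm38), a surface protein of epithelial progenitors that also marks subsets of DCs. It had 16.3, 14.7, 21.4, 12.3 and 6.24 CPM in the libraries named ctrl and 3.26, 3.07, 2.77, 2.16 and 1.71 CPM in those named 24h. All libraries named ctrl lay above all those named 24h, and the drop within a culture was larger than the spread of the libraries named 24h in each (log2 fold change -2.40, standard error 0.16, adjusted p = 0.000418). *Clec2l*, a C-type lectin-like membrane protein, had 20.9, 3.42, 14.7, 8.17 and 3.07 CPM in the libraries named ctrl and 6, 1.12, 3.6, 1.54 and 0.475 CPM in those named 24h. Cultures differed widely in level and the sets overlapped, while the fall within a culture was of like size in all 5 (log2 fold change -2.03, standard error 0.16, adjusted p = 0.00129).

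Genes of hormone receptors were among these falls. *Lepr*, the receptor of leptin, had 43.7, 15.5, 18.9, 45.6 and 5.18 CPM in the libraries named ctrl and 14, 5.25, 7.49, 6.79 and 1.66 CPM in those named 24h. The fall was steepest in culture s856, and culture s864 was lowest in both sets (log2 fold change -1.77, standard error 0.18, adjusted p = 0.00262). *Gipr*, the receptor of the incretin GIP, fell from 6.21 ± 6.88 to 1.68 ± 1.92 CPM (mean ± SD, n = 5, log2 fold change -1.78, standard error 0.23, adjusted p = 0.00469), with levels under 1 CPM in cultures s850 and s864. *Epha4*, a receptor of ephrins, fell by 1.65 and *Ncam1*, a neural adhesion molecule, by 1.74 on the log2 scale.

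*Traf4*, an adaptor of the TRAF family, had 45.4, 6.97, 52.4, 21.7 and 5.03 CPM in the libraries named ctrl and 13.3, 3.91, 9.93, 6.1 and 2.61 CPM in those named 24h. Cultures s846 and s855 were highest in both sets and fell most in absolute terms (log2 fold change -1.64, standard error 0.21, adjusted p = 0.00457). *Cd14*, the co-receptor of TLR4 for lipopolysaccharide, had 549, 346, 556, 715 and 212 CPM in the libraries named ctrl and 249, 142, 273, 259 and 29.6 CPM in those named 24h. The value in culture s864 named 24h stood well below all others, and the sets overlapped (log2 fold change -1.52, standard error 0.23, adjusted p = 0.00757). *C1rl*, a relative of the complement protease C1r (-1.40), *Adgb*, androglobin (-1.57), and *4933424M12Rik* (-1.90) were also among the 12 largest falls, as was *H2-Ob*, described below. By p, *Trem1*, an activating receptor of myeloid cells, joined them (log2 fold change -1.36, standard error 0.13, adjusted p = 0.00262). These falls kept an adjusted p under 0.05 with any 1 culture left out.

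**Figure D2:**
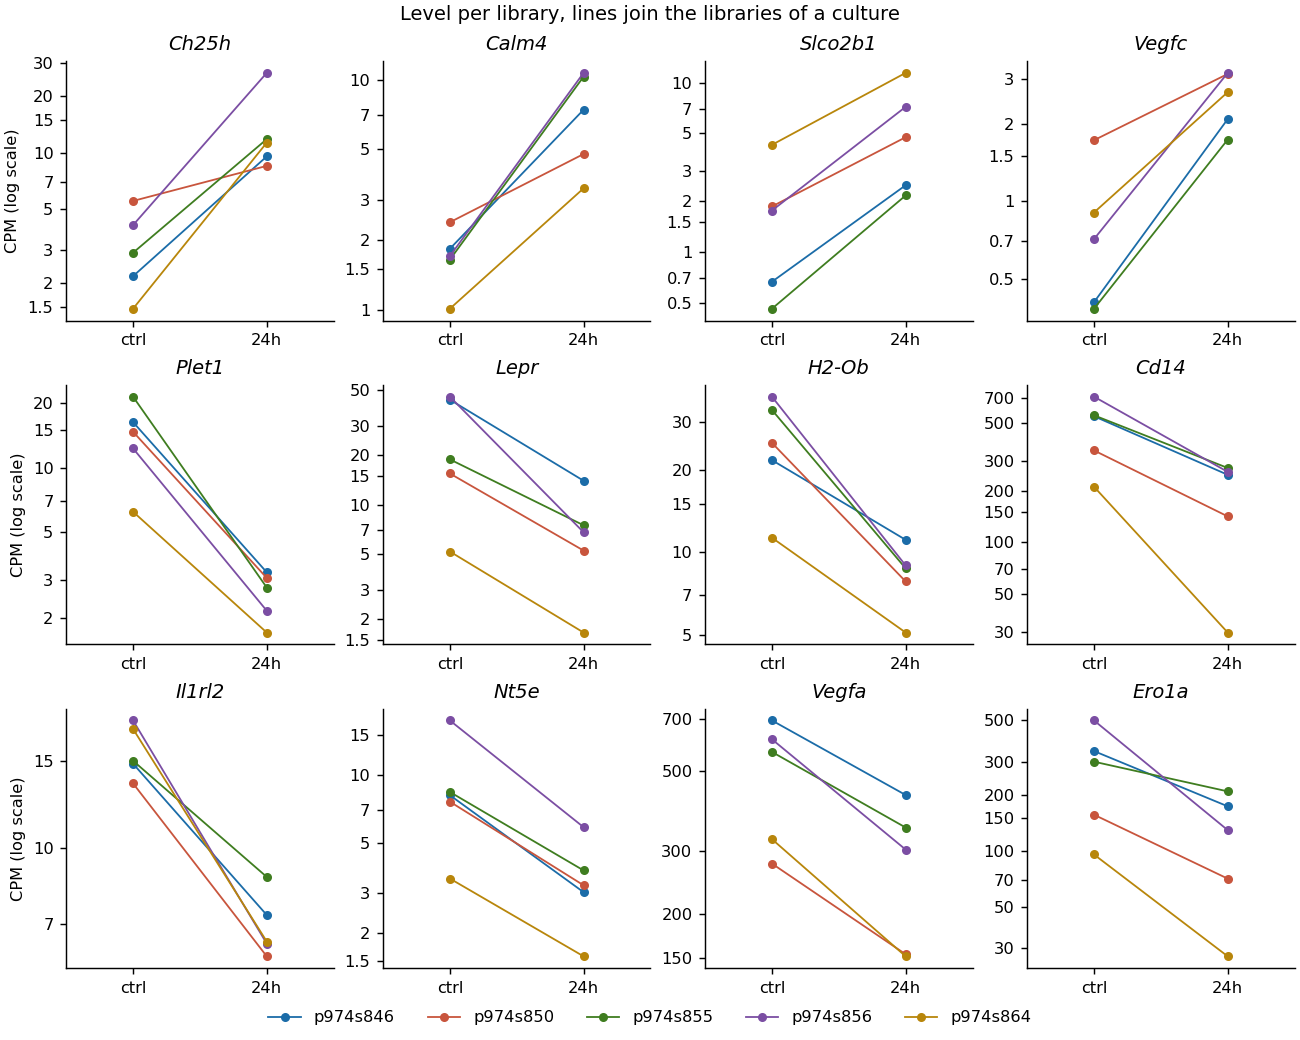
Level of 12 genes in CPM on a log scale (y axis) in the libraries named ctrl and 24h of each WT culture (x axis), with a line joining the libraries of a culture. The 5 lines of a panel run the same way in each of the 12, upward in *Ch25h*, *Calm4*, *Slco2b1* and *Vegfc* and downward in the others, while cultures differ in level.

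Beyond single genes, 34 lists of genes of known function were described by how many members passed in each direction and by their median, beside -0.00786 for all genes tested. The lowest medians were those of chemokine receptors (-0.55), glycolysis and hypoxia genes (-0.44), costimulatory and checkpoint genes (-0.34) and the IL-1 receptor family (-0.34). The highest were those of mitochondrially encoded genes (0.29), cell cycle genes (0.23), interferon-inducible GTPases (0.22) and mature migratory DC genes (0.21). Counts of list members below are read against the shares of all genes tested that passed an adjusted p of 0.05, 2.41% higher and 3.64% lower.

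**Figure D3:**
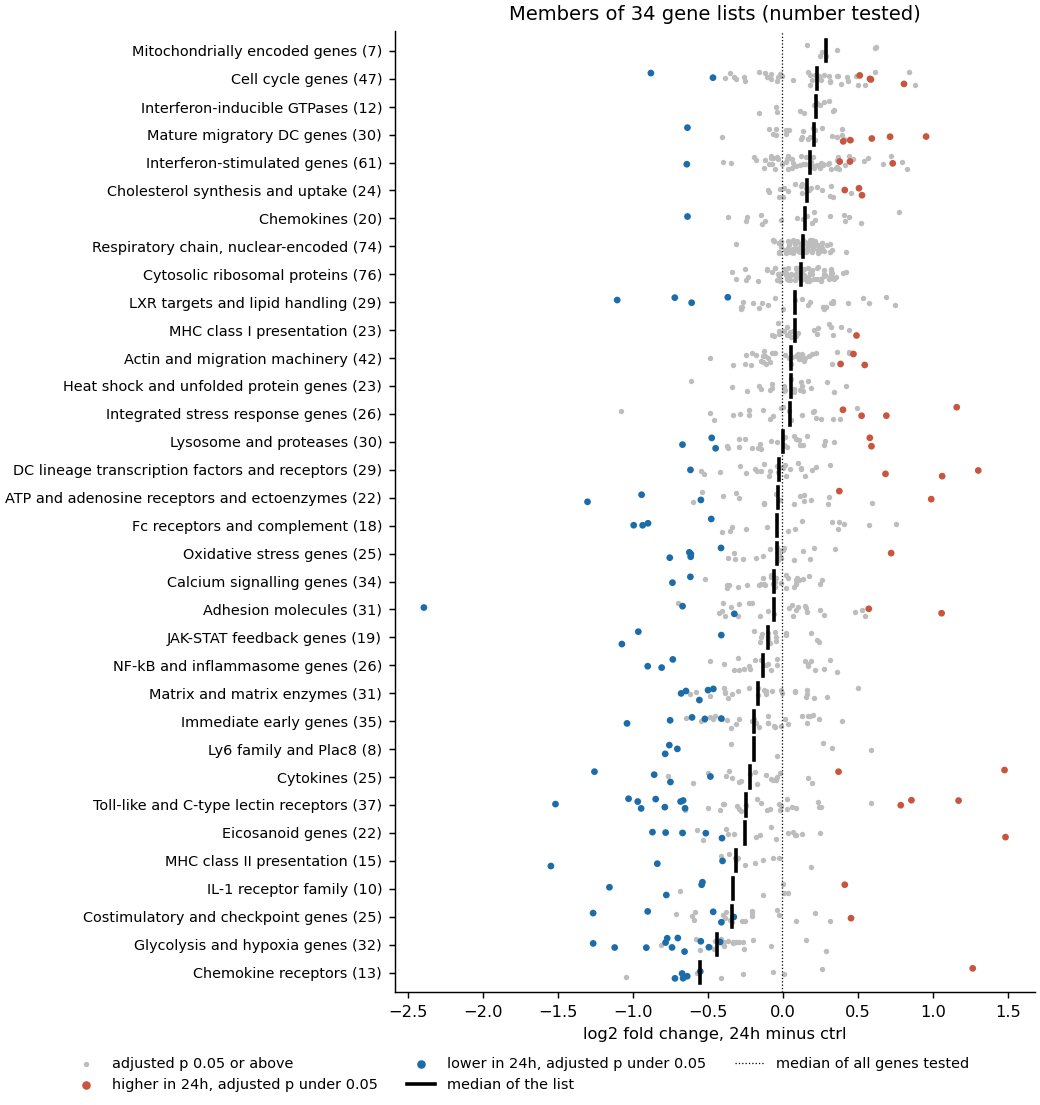
Log2 fold change from ctrl to 24h (x axis) of each tested member of 34 gene lists (y axis, number tested in brackets), ordered by the median of the list. Red and blue points passed an adjusted p under 0.05. Blue points gather in the lists of chemokine receptors, glycolysis and hypoxia genes and Toll-like and C-type lectin receptors.

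Glycolysis and hypoxia genes had edgeR estimates of the log2 fold change below 0 for nearly every member, though not in every culture. Many are controlled by HIF, the factor that oxygen-dependent prolyl hydroxylases keep low, and which binds the core sequence ACGTG in DNA. Of 32 tested, 11 were lower (against 3.64% of all genes) and 0 higher at an adjusted p under 0.05, 30 had a log2 fold change below 0, and 2 were called, *Ero1a* and *Egln3*. At an unadjusted p under 0.05, 19 were lower and 1 higher, and DESeq2 passed 13 lower and 0 higher. To show where that core sequence lies in members whose level fell, the 250 bases before the annotated start of 3 of them are printed 5′ to 3′ on the strand of the gene, with ACGTG or its reverse complement CACGT in capitals (RefSeq, GRCm38.p6). They were chosen among members that hold a match, and where a gene has several starts the window with most matches is shown: *Ero1a* (chr14:45318573-45318822, reverse strand), *Egln3* (chr12:54203875-54204124, reverse strand) and *Slc2a1* (chr4:119108495-119108744, forward strand).
Ero1a: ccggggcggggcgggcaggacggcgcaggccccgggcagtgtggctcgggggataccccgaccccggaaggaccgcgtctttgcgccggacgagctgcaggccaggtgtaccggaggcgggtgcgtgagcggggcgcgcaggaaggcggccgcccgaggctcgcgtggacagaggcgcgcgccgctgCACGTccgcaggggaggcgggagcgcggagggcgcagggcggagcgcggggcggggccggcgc
Egln3: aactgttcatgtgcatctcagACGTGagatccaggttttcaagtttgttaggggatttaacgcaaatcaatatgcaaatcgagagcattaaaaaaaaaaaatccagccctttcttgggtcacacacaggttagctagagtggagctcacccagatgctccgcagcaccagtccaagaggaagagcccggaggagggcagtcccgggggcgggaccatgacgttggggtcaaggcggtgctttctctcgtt
Slc2a1: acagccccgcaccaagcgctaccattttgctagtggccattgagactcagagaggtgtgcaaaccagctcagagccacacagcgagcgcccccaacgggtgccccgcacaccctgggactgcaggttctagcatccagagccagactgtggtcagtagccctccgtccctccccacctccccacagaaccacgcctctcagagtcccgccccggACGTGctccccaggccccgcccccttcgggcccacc

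The core lay on either strand in 24 of 46 such windows of the list (52.2%), which cover 30 of its 32 genes, and in 16.6% of all 32851 windows of the same length. Among the 12606 windows of genes tested the share was 21.5%. Because the list was put together from genes known for glycolysis and hypoxia, its higher share follows from that choice. It is no result about the change from ctrl to 24h. Of the 11 members that were lower, 10 had a window and 8 of these held the core. Counted by gene in the same way, 20 of the 30 list genes with a window held it. Among genes tested, 2469 of 9880 with a window did. Whether the members that were lower differed in this from the rest of the list was not tested. ACGTG and CACGT overlap where the letters read CACGTG. In windows of the 70 called falls as a whole the share was 18.2%, and in those of the 52 called rises 12.3%, both below that of the genes tested. A match is a string of letters in a window and not a site of binding.

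*Ero1a*, the oxidase that forms disulfide bonds in the endoplasmic reticulum, had 342, 156, 300, 499 and 95.5 CPM in the libraries named ctrl and 173, 70.9, 208, 129 and 27.2 CPM in those named 24h. Every culture fell, most in cultures s856 and s864, and the sets overlapped (log2 fold change -1.27, standard error 0.19, adjusted p = 0.00720). *Egln3*, a HIF prolyl hydroxylase that HIF itself induces, had 176, 74.7, 107, 247 and 65.4 CPM in the libraries named ctrl and 122, 33.5, 89.6, 97.2 and 10.9 CPM in those named 24h. Its fall was largest in culture s864 and smallest in culture s855 (log2 fold change -1.12, standard error 0.27, adjusted p = 0.0408). *Slc2a1*, the glucose transporter GLUT1, had 208, 108, 187, 300 and 106 CPM in the libraries named ctrl and 140, 60, 158, 182 and 35.4 CPM in those named 24h. Again the fall was largest in culture s864 and smallest in culture s855 (log2 fold change -0.77, standard error 0.16, adjusted p = 0.0252).

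Further members that fell were *Hk2* (-0.78, adjusted p = 0.0291), a hexokinase, *Hilpda* (-0.91, adjusted p = 0.0280), which coats lipid droplets, *Ndrg1* (-0.55, adjusted p = 0.0148), a stress-responsive gene, *P4ha1* (-0.74, adjusted p = 0.0463), a collagen prolyl hydroxylase, *Pfkp* (-0.42, adjusted p = 0.0326), a phosphofructokinase, and *Aldoc* (-0.70, adjusted p = 0.0458), an aldolase. *Pgam1* (-0.66) and *Pfkm* (-0.50) also passed. *Vegfa*, the vascular growth factor and a textbook HIF target that stood in the cytokine list, had 693, 276, 566, 614 and 323 CPM in the libraries named ctrl and 429, 154, 348, 302 and 152 CPM in those named 24h. It fell by a like factor in all 5 cultures (log2 fold change -0.86, standard error 0.09, adjusted p = 0.00262).

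The size of the group's change differed between cultures. Of 32 members, 11 were lower in all 5 cultures, a set without *Pgam1*. *Gapdh*, *Ldha*, *Pkm*, *Pgk1*, *Eno1*, *Tpi1*, *Aldoa* and *Hif1a* did not pass in edgeR. *Ldha* had log2 changes of 0.12, -0.939, 0.105, 0.0386 and -1.22, and *Pkm* of 0.0622, -0.829, 0.114, 0.0394 and -1.13. The median log2 change of the members was -0.17 in culture s846, -0.81 in s850, -0.00311 in s855, -0.48 in s856 and -1.14 in s864. The 2 largest falls of this median were in the cultures with the highest mitochondrial share. The part of RNA quality in this was not tested. With 1 culture left out, the number lower ranged from 2 (without culture s846 or s850) to 8, and *Vegfa* and *Ero1a* passed each time. The adjusted p exceeded 0.05 for *Egln3* (culture s846, s850 or s856, adjusted p up to 0.0941), *Slc2a1* (culture s846 or s850, adjusted p up to 0.0819), *Hk2* (culture s846, s850, s856 or s864, adjusted p up to 0.0772), *Hilpda* (culture s846, s850 or s856, adjusted p up to 0.0660), *Ndrg1* (culture s855, adjusted p = 0.0593), *P4ha1* (culture s846, s850, s856 or s864, adjusted p up to 0.0993), *Pfkp* (culture s846, s850, s856 or s864, adjusted p up to 0.0971), *Aldoc* (any 1 culture, adjusted p up to 0.0992), *Pgam1* (culture s846, s850, s856 or s864, adjusted p up to 0.155) and *Pfkm* (any 1 culture, adjusted p up to 0.139). With cultures s850 and s864 left out together, 6 members were lower, and 11 were lower once a trend with GC content had been taken out of each library.

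**Figure D4:**
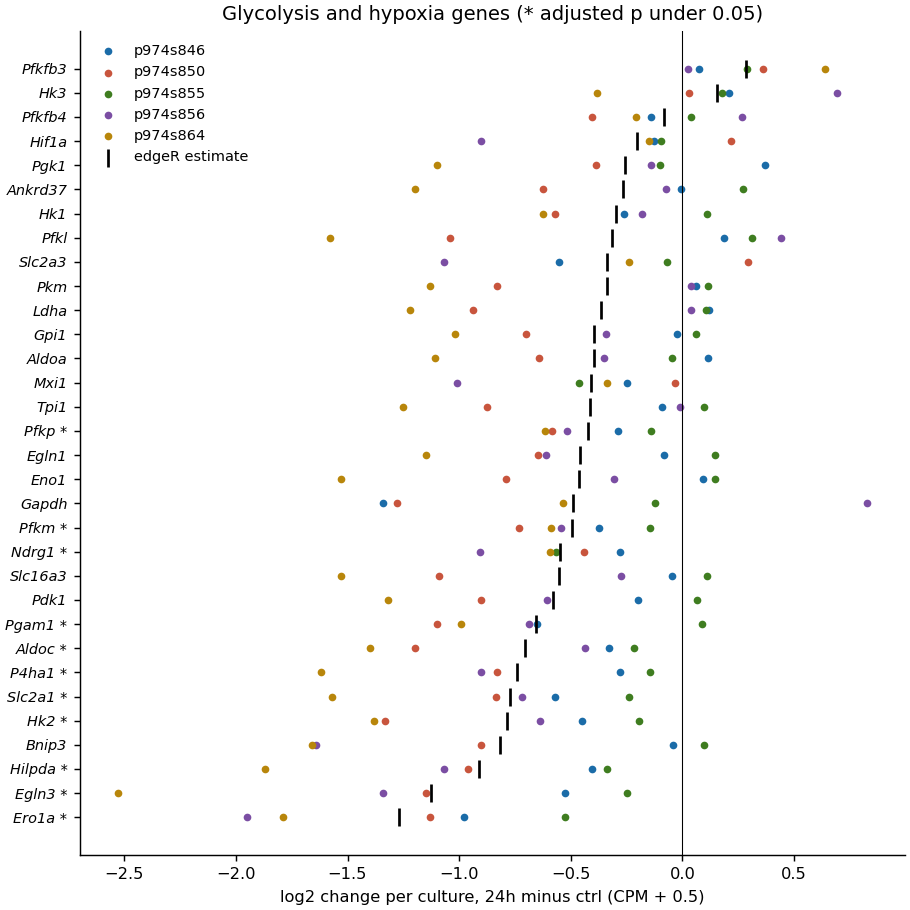
Log2 change from ctrl to 24h in each of 5 WT cultures (coloured points, x axis) and the edgeR estimate (black bars) for 32 glycolysis and hypoxia genes (y axis), with an asterisk at an adjusted p under 0.05. Estimates lie below 0 for 30 genes, and culture s864 lies farthest left for most genes.

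Receptors for microbial products fell more often than they rose. Of 37 Toll-like and C-type lectin receptors tested, 9 were lower and 3 higher at an adjusted p under 0.05, with a median of -0.25. *Clec7a*, the receptor Dectin-1 for fungal glucans, had 173, 270, 276, 167 and 346 CPM in the libraries named ctrl and 99.5, 171, 131, 80.6 and 210 CPM in those named 24h. Culture s864 was highest in both sets and all 5 fell alike (log2 fold change -0.85, standard error 0.09, adjusted p = 0.00262). *Clec4e* (log2 fold change -1.03, standard error 0.18, adjusted p = 0.0136), the receptor Mincle, and *Clec4n* (-0.68), the receptor Dectin-2, fell as well, as did *Tlr5* (-0.97), the receptor of flagellin. *Tlr11* rose (log2 fold change 1.17, standard error 0.22, adjusted p = 0.0164), and *Klra17*, a lectin-like receptor, rose by 0.86. The level of *Tlr11* was low, from 0.221 to 1.06 CPM in the libraries named ctrl and from 0.558 to 2.23 CPM in those named 24h. Between 2 (without culture s846) and 7 members were lower when 1 culture was left out. The adjusted p then exceeded 0.05 for *Clec4e* (culture s846, adjusted p = 0.0633), *Clec4n* (culture s846, adjusted p = 0.0643), *Tlr5* (culture s846, adjusted p = 0.0721), *Tlr11* (culture s846, s855 or s864, adjusted p up to 0.0651) and *Klra17* (culture s846, adjusted p = 0.0521).

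Where Fc receptor, complement and inflammasome genes passed in edgeR, they were lower. Of 18 Fc receptor and complement genes, 4 were lower and 0 higher. The list as a whole was evenly split, with log2 fold changes above 0 for 9 members and below 0 for 9 (median -0.04). DESeq2 passed 6 members lower and 2 higher. *Fcgr2b*, the inhibitory receptor for IgG, had 275, 255, 195, 288 and 228 CPM in the libraries named ctrl and 152, 129, 143, 167 and 81 CPM in those named 24h. The 2 sets did not overlap, with the lowest value in culture s864 named 24h (log2 fold change -0.90, standard error 0.13, adjusted p = 0.00730). *C3*, the central complement component, fell from 472 ± 235 to 271 ± 182 CPM (mean ± SD, n = 5, log2 fold change -1.0, standard error 0.18, adjusted p = 0.0142). *Nlrp3*, the inflammasome sensor that ATP acts on through P2X7, fell from 38.4 ± 10.2 to 20 ± 3.49 CPM (mean ± SD, n = 5, log2 fold change -0.90, standard error 0.18, adjusted p = 0.0210), with no overlap between the sets, and *Txnip* by 0.81, among 26 NF-κB and inflammasome genes of which 3 were lower and 0 higher. *Slc7a2*, which carries arginine into the cell, and *Nos2*, which makes nitric oxide from it, were named after their values were seen. *Slc7a2* fell from 362 ± 202 to 160.5 ± 102 CPM (log2 fold change -1.26, standard error 0.16, adjusted p = 0.00416) and *Nos2* from 137 ± 120.3 to 54.4 ± 50.5 CPM (log2 fold change -1.11, standard error 0.25, adjusted p = 0.0311), where *Nos2* ranged from 1.51 to 264 CPM across the libraries named ctrl. Leaving out 1 culture took the adjusted p above 0.05 for *C3* (culture s846, adjusted p = 0.0566), *Nlrp3* (culture s846, adjusted p = 0.0672) and *Nos2* (culture s846, s855, s856 or s864, adjusted p up to 0.143).

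In the IL-1 receptor family, 4 of 10 genes tested were lower and 1 higher. *Il1rl2* (ENSMUSG00000070942, chr1:40324610-40367562, forward strand of GRCm38), the receptor of IL-36 cytokines, had 14.8, 13.5, 15, 18.1 and 17.4 CPM in the libraries named ctrl and 7.31, 6.03, 8.73, 6.4 and 6.46 CPM in those named 24h. The libraries of a set lay close together and the sets did not overlap (log2 fold change -1.16, standard error 0.13, adjusted p = 0.00262). *Il1rn*, the IL-1 receptor antagonist, fell from 313 ± 95.5 to 186 ± 67.5 CPM (mean ± SD, n = 5, log2 fold change -0.78, standard error 0.15, adjusted p = 0.0177), and the decoy receptor *Il1r2* (-0.54) and the binding protein *Il18bp* (-0.54) fell by less. *Sigirr*, an inhibitory receptor of the family, rose (log2 fold change 0.41, standard error 0.08, adjusted p = 0.0176). The adjusted p exceeded 0.05 with 1 culture left out for *Il1rn* (culture s855, adjusted p = 0.0603), *Il1r2* (culture s846 or s855, adjusted p up to 0.0674), *Il18bp* (culture s855, adjusted p = 0.0602) and *Sigirr* (culture s846, s855 or s864, adjusted p up to 0.0828), and without culture s855 1 member was lower.

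Of 25 cytokine genes tested, 4 were lower and 2 higher, and 21 had a log2 fold change below 0. Beside *Vegfa*, *Pgf*, the placental growth factor of the VEGF family, fell from 27.5 ± 19.5 to 11.6 ± 9.41 CPM (mean ± SD, n = 5, log2 fold change -1.26, standard error 0.16, adjusted p = 0.00416), *Il1b* from 450.2 ± 260.3 to 275 ± 159 CPM (log2 fold change -0.75, standard error 0.16, adjusted p = 0.0263) and *Tgfb1* from 204 ± 14.4 to 146 ± 24.4 CPM (log2 fold change -0.49, standard error 0.11, adjusted p = 0.0305). *Il10*, the anti-inflammatory cytokine, had 1.44, 0.394, 2.03, 0.317 and 0.403 CPM in the libraries named ctrl and 4.37, 1.12, 5.46, 1.62 and 0.38 CPM in those named 24h. Its level was higher in the 24h library of 4 of 5 cultures and lower in culture s864, where both values were under 1 CPM (log2 fold change 1.48, standard error 0.25, adjusted p = 0.0121). *Il15*, which sustains NK and memory T cells, rose by 0.37 (adjusted p = 0.0451). Against the libraries named 0p5h, *Il10* (log2 fold change 0.32, adjusted p = 0.589) and *Il15* did not pass. With 1 culture left out, the adjusted p exceeded 0.05 for *Il1b* (culture s846, s855, s856 or s864, adjusted p up to 0.121), *Tgfb1* (any 1 culture, adjusted p up to 0.0848), *Il10* (culture s846 or s855, adjusted p up to 0.0796) and *Il15* (any 1 culture, adjusted p up to 0.159).

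Of 13 chemokine receptors tested, 5 were lower and 1 higher. *Ccr1* had 84.3, 85.1, 84.8, 113 and 96.3 CPM in the libraries named ctrl and 62.5, 55.3, 64.8, 52.1 and 44.9 CPM in those named 24h. The sets did not overlap (log2 fold change -0.72, standard error 0.12, adjusted p = 0.0117). *Ccr2* (-0.67) and the atypical receptor *Ccrl2* (-0.55) fell too, as did *Ackr3*, the scavenger of CXCL12 (-0.67), and *Ccr6*, the receptor of CCL20, rose from 0.776 ± 0.266 to 1.96 ± 1.16 CPM (mean ± SD, n = 5, log2 fold change 1.27, standard error 0.25, adjusted p = 0.0181). *Ccr7*, the receptor that guides DCs to lymph nodes, had 4544, 4065, 4918, 5222 and 3056 CPM in the libraries named ctrl and 5099, 4744, 5678, 6389 and 3924 CPM in those named 24h. Each culture was higher in the library named 24h, while the gene did not pass (log2 fold change 0.26, standard error 0.10, adjusted p = 0.173). Between 1 (without culture s846) and 4 receptors were lower with 1 culture left out, and the adjusted p exceeded 0.05 for *Ccr2* (culture s846, s850, s856 or s864, adjusted p up to 0.0821), *Ccrl2* (culture s846, s855 or s864, adjusted p up to 0.112), *Ackr3* (any 1 culture, adjusted p up to 0.130) and *Ccr6* (culture s855 or s856, adjusted p up to 0.0666).

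Of 30 mature migratory DC genes, 5 were higher and 1 lower, with a median of 0.21. *Fscn1*, the actin bundling protein fascin of mature DCs, had 3414, 4886, 3312, 3947 and 3134 CPM in the libraries named ctrl and 6205, 6777, 5368, 7101 and 4912 CPM in those named 24h. The sets were separated by a narrow margin, with culture s850 named ctrl just below culture s864 named 24h (log2 fold change 0.71, standard error 0.11, adjusted p = 0.00804). The other rises were *Apol7c* (0.95), *Nudt17* (0.59), *Arc*, a cytoskeletal regulator known from synapses (0.45), and *Anxa3* (0.40). *Ccl17*, a chemokine for T cells, fell by 0.64 (adjusted p = 0.0336). Of 42 actin and migration genes, 3 were higher and 0 lower, namely *Lsp1* (0.54), *Swap70* (0.47) and *Cfl1*, cofilin (0.38).

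Among 31 adhesion molecules, 2 were higher and 3 lower. *Itgax*, the integrin CD11c, fell from 229 ± 27.5 to 145 ± 34.4 CPM (mean ± SD, n = 5, log2 fold change -0.67, standard error 0.10, adjusted p = 0.00835). *Epcam* rose (log2 fold change 1.06, standard error 0.21, adjusted p = 0.0181) and *L1cam* by 0.57. *Itgam*, the integrin CD11b, went from 225 ± 102 to 159 ± 47.7 CPM (log2 fold change -0.41, standard error 0.15, adjusted p = 0.137) and *Cd44*, the hyaluronan receptor, from 342 ± 95.6 to 345 ± 81.4 CPM (log2 fold change 0.04, standard error 0.12, adjusted p = 0.886), and neither passed. Without culture s846, 1 of the mature migratory DC genes was higher, and with 1 culture left out the adjusted p exceeded 0.05 for *Fscn1* (culture s846, adjusted p = 0.0523), *Apol7c* (culture s846 or s855, adjusted p up to 0.0674), *Arc* (culture s846 or s855, adjusted p up to 0.0781), *Anxa3* (culture s846, s850, s855 or s864, adjusted p up to 0.132), *Ccl17* (culture s846, s850 or s855, adjusted p up to 0.115), *Lsp1* (culture s846 or s855, adjusted p up to 0.0882), *Swap70* (culture s846, s855, s856 or s864, adjusted p up to 0.123), *Cfl1* (any 1 culture, adjusted p up to 0.171), *Epcam* (culture s846, s855 or s864, adjusted p up to 0.0808) and *L1cam* (culture s846, adjusted p = 0.0827).

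Of 15 genes of MHC class II presentation, 3 were lower and 0 higher, and 14 had a log2 fold change below 0. *H2-Ob*, a chain of H2-O that restrains peptide loading onto class II, had 21.7, 25.1, 33.1, 37 and 11.3 CPM in the libraries named ctrl and 11.1, 7.82, 8.73, 8.95 and 5.09 CPM in those named 24h. Each library named 24h lay below each library named ctrl, by a narrow margin at culture s864 named ctrl (log2 fold change -1.55, standard error 0.16, adjusted p = 0.00262). *Marchf1*, the ubiquitin ligase that sends class II and CD86 for degradation, had 30.7, 28.5, 29.8, 42.9 and 30.2 CPM in the libraries named ctrl and 13.9, 21.4, 19.7, 18.7 and 16.2 CPM in those named 24h. Here too the sets did not overlap, and culture s856 named ctrl was highest (log2 fold change -0.84, standard error 0.12, adjusted p = 0.00730). *H2-Eb2* fell by 0.40, and *Ciita*, the master regulator of class II genes, did not pass (log2 fold change -0.42, standard error 0.14, adjusted p = 0.105). In class I presentation, 1 of 23 genes passed, *Tapbpl*, a peptide editor (log2 fold change 0.49, standard error 0.08, adjusted p = 0.0121).

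Of 25 costimulatory and checkpoint genes, 5 were lower and 1 higher. *Btla*, an inhibitory receptor of lymphocytes and DCs, had 8.93, 5.31, 19.1, 7.94 and 0.755 CPM in the libraries named ctrl and 4, 1.62, 8.86, 3.16 and 0.333 CPM in those named 24h. Culture s855 was highest and culture s864 lowest in both sets, and the fall was of like size in each (log2 fold change -1.27, standard error 0.14, adjusted p = 0.00262). *Havcr2*, the receptor TIM-3, fell from 22.9 ± 10.5 to 11.8 ± 4.63 CPM (mean ± SD, n = 5, log2 fold change -0.90, standard error 0.16, adjusted p = 0.0121), *Sirpa*, which binds CD47, from 726 ± 148 to 516 ± 37.9 CPM with no overlap between the sets (log2 fold change -0.47, standard error 0.10, adjusted p = 0.0259), and *Cd200r1* by 0.41. *Pdcd1*, the receptor PD-1, rose by 0.45 (adjusted p = 0.0334). With 1 culture left out, the adjusted p exceeded 0.05 for *H2-Eb2* (culture s846, s850 or s855, adjusted p up to 0.125), *Tapbpl* (culture s846, adjusted p = 0.0677), *Havcr2* (culture s846 or s855, adjusted p up to 0.0681), *Sirpa* (culture s846, s850, s855 or s864, adjusted p up to 0.0803), *Cd200r1* (culture s846, s855 or s864, adjusted p up to 0.0963) and *Pdcd1* (culture s846, s855, s856 or s864, adjusted p up to 0.128).

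Genes of ATP and adenosine handling moved in both directions, with 2 of 22 higher and 3 lower. *Nt5e*, the ectoenzyme CD73 that makes adenosine from AMP, had 8.12, 7.6, 8.39, 17.4 and 3.47 CPM in the libraries named ctrl and 3.02, 3.24, 3.77, 5.86 and 1.57 CPM in those named 24h. Culture s856 was highest and s864 lowest in both sets, which overlapped, and all 5 fell (log2 fold change -1.31, standard error 0.12, adjusted p = 0.00262). *Adora2b*, the low-affinity adenosine receptor, fell from 6.42 ± 0.936 to 3.33 ± 0.733 CPM with no overlap between the sets (mean ± SD, n = 5, log2 fold change -0.94, standard error 0.12, adjusted p = 0.00469), and *P2ry14*, a receptor of UDP-glucose, by 0.55. *Ada*, the enzyme that deaminates adenosine, rose from 0.955 ± 0.202 to 1.89 ± 0.395 CPM (log2 fold change 0.99, standard error 0.19, adjusted p = 0.0175) and *Adora2a*, the high-affinity adenosine receptor, from 141 ± 16.6 to 182 ± 23.6 CPM (log2 fold change 0.37, standard error 0.09, adjusted p = 0.0460), each with no overlap between the sets. *P2rx7*, the ATP-gated channel most studied in DCs, did not pass (log2 fold change -0.13, standard error 0.20, adjusted p = 0.752).

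Of 34 calcium signalling genes, 2 were lower and 0 higher. *Atp2a3*, the pump SERCA3 that fills the endoplasmic reticulum with calcium, fell from 49.3 ± 21.8 to 30.9 ± 10.5 CPM (mean ± SD, n = 5, log2 fold change -0.62, standard error 0.09, adjusted p = 0.00680) and *Trpm2*, a calcium-permeable channel, by 0.74. *Cacnb3*, the calcium channel β subunit that the study is about, had 1380, 1407, 1171, 1181 and 1201 CPM in the libraries named ctrl and 1326, 1640, 1350, 1903 and 2169 CPM in those named 24h. It was lower in culture s846 and higher in the other 4, and did not pass (log2 fold change 0.39, standard error 0.14, adjusted p = 0.138). The adjusted p with 1 culture left out exceeded 0.05 for *P2ry14* (culture s855 or s864, adjusted p up to 0.0591), *Ada* (culture s846 or s855, adjusted p up to 0.0677), *Adora2a* (any 1 culture, adjusted p up to 0.152) and *Trpm2* (culture s846, adjusted p = 0.0562). Against the libraries named 0p5h, *Trpm2* and *Adora2a* did not pass, and *Cacnb3* did (log2 fold change 0.43, adjusted p = 0.0457).

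Signal-dependent genes were lower where they passed. Of 35 immediate early genes, 5 were lower and 0 higher. *Fosl2*, a subunit of the factor AP-1, had 182, 90.8, 185, 180 and 113 CPM in the libraries named ctrl and 108, 62.3, 108, 55.3 and 39.6 CPM in those named 24h. All 5 cultures fell, culture s856 most (log2 fold change -1.04, standard error 0.16, adjusted p = 0.00857). *Klf10* (-0.75), *Dusp4*, a MAP kinase phosphatase (-0.61), *Sik1* (-0.52) and *Pim3* (-0.41) were the others. Of 19 JAK-STAT feedback genes, 3 were lower and 0 higher. *Socs3*, which limits signalling by IL-6 and related cytokines, had 68.3, 35.5, 77.7, 72.7 and 15 CPM in the libraries named ctrl and 32.1, 15.6, 61.5, 26.5 and 5.37 CPM in those named 24h. The levels in culture s864 were the lowest of each set (log2 fold change -1.08, standard error 0.15, adjusted p = 0.00680). *Cish*, a STAT5-induced inhibitor of GM-CSF and IL-2 family signals, fell from 32.4 ± 16 to 15.7 ± 5.07 CPM (mean ± SD, n = 5, log2 fold change -0.97, standard error 0.12, adjusted p = 0.00416). Leaving out 1 culture took the adjusted p above 0.05 for *Klf10* (culture s846, s856 or s864, adjusted p up to 0.0679), *Dusp4* (culture s846 or s855, adjusted p up to 0.0829), *Sik1* (culture s846, s855, s856 or s864, adjusted p up to 0.126) and *Pim3* (culture s846, s850 or s855, adjusted p up to 0.0943). Against the libraries named 0p5h in place of ctrl, the count of immediate early genes was larger, as 26 of 35 were lower in the libraries named 24h.

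Of 29 LXR targets and lipid handling genes, 4 were lower and 0 higher. The list as a whole was split, with log2 fold changes above 0 for 15 members and below 0 for 14 (median 0.08). At an unadjusted p under 0.05, 9 members were higher and 5 lower, and DESeq2 passed 1 higher and 4 lower. *Scd2*, a desaturase of fatty acids, had 168, 151, 176, 245 and 173 CPM in the libraries named ctrl and 108, 61, 111, 95.1 and 56.3 CPM in those named 24h. The sets did not overlap, and culture s856 named ctrl was highest (log2 fold change -1.11, standard error 0.15, adjusted p = 0.00510). *Abca1*, which exports cholesterol, had 227, 215, 225, 248 and 268 CPM in the libraries named ctrl and 151, 148, 154, 120 and 140 CPM in those named 24h. The libraries of each set lay close together and apart from the other set (log2 fold change -0.72, standard error 0.10, adjusted p = 0.00652). Of 24 genes of cholesterol synthesis and uptake, 3 were higher and 0 lower, *Cyp51* (0.53), *Fdps* (0.51) and *Fdft1* (0.41), each an enzyme of the pathway. *Fdft1* overlaps *Ctsb* in the annotation. Of 22 eicosanoid genes, 5 were lower and 1, *Hpgds*, higher. The falls included *Ptges*, a synthase of prostaglandin E (log2 fold change -0.87, standard error 0.18, adjusted p = 0.0213), *Alox5*, the first enzyme of leukotriene synthesis (-0.78), and *Pla2g4a*, the phospholipase that releases arachidonic acid (-0.67). With 1 culture left out, the adjusted p exceeded 0.05 for *Cyp51* (culture s846 or s855, adjusted p up to 0.0821), *Fdps* (culture s846, s855, s856 or s864, adjusted p up to 0.0999), *Fdft1* (culture s846, s850, s855 or s864, adjusted p up to 0.129), *Ptges* (culture s846, adjusted p = 0.115), *Alox5* (culture s846 or s855, adjusted p up to 0.0821) and *Pla2g4a* (culture s846, s855, s856 or s864, adjusted p up to 0.107). Without culture s846, 0 eicosanoid genes were lower and 0 higher.

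Of 29 transcription factors and receptors of the DC lineage, 3 were higher and 1 lower. *Id3*, an inhibitor of E proteins, had 3.25, 10.3, 2.53, 2.86 and 13.6 CPM in the libraries named ctrl and 9.35, 16, 8.11, 13.7 and 21.9 CPM in those named 24h. Every culture rose, and cultures s850 and s864 named ctrl lay above the lowest libraries named 24h (log2 fold change 1.30, standard error 0.22, adjusted p = 0.0121). *Id1*, its relative, rose from 0.559 ± 0.468 to 1.10 ± 0.529 CPM (mean ± SD, n = 5, log2 fold change 1.06, standard error 0.27, adjusted p = 0.0463). *Flt3*, the receptor of the growth factor that DC precursors depend on, had 81.8, 81.2, 67, 72.3 and 50.1 CPM in the libraries named ctrl and 103, 130, 111, 95.1 and 119 CPM in those named 24h. The 2 sets did not overlap (log2 fold change 0.68, standard error 0.12, adjusted p = 0.0139). *Runx3*, which limits DC maturation downstream of TGF-β, fell from 267 ± 115 to 169 ± 69.2 CPM (log2 fold change -0.62, standard error 0.11, adjusted p = 0.0121). Of 8 genes tested in the list of the Ly6 family and *Plac8*, 3 were lower and 0 higher. Among the 3 was the monocyte marker *Ly6c2* (log2 fold change -0.76, standard error 0.12, adjusted p = 0.00861). The sequence of *Ly6c2* is close to that of *Ly6c1*, so that the counting could split or lose its reads. The adjusted p exceeded 0.05 with 1 culture left out for *Id3* (culture s846, adjusted p = 0.0653), *Id1* (culture s846, s850, s855 or s856, adjusted p up to 0.155) and *Flt3* (culture s855, adjusted p = 0.0548), and against the libraries named 0p5h for *Id1*.

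Of 25 oxidative stress genes, 5 were lower and 1 higher. *Nfe2l2*, the factor NRF2 that controls antioxidant genes, fell from 372 ± 18.6 to 243 ± 37.0 CPM with no overlap between the sets (mean ± SD, n = 5, log2 fold change -0.62, standard error 0.09, adjusted p = 0.00730). Falls also passed for *Prdx6* (-0.62), *Fth1*, the ferritin heavy chain (-0.63), and *Cybb*, the catalytic subunit of the phagocyte NADPH oxidase (-0.76). Of 31 matrix genes and enzymes, 5 were lower and 0 higher, with *Tgm2*, a transglutaminase (log2 fold change -0.68, standard error 0.10, adjusted p = 0.00697), and *Thbs1*, thrombospondin 1 (-0.65). Without culture s846, 1 matrix gene was lower. In the integrated stress response 4 of 26 genes were higher and 0 lower in edgeR, *Cth* (1.16), *Wars1* (0.69), *Atf5* (0.52) and *Mthfd2* (0.40). DESeq2 passed 3 higher and 3 lower, and 14 members had a log2 fold change above 0 and 12 below (median 0.05). *Cth* had a low level, from 0.352 to 0.553 CPM in the libraries named ctrl and from 0.791 to 1.45 CPM in those named 24h. *Atf5* overlaps *Il4i1* in the annotation, and the genes that overlap it had more counts. Leaving out 1 culture took the adjusted p above 0.05 for *Fth1* (culture s846 or s855, adjusted p up to 0.0883), *Cybb* (culture s846, s856 or s864, adjusted p up to 0.0915), *Thbs1* (culture s846 or s855, adjusted p up to 0.0583), *Cth* (any 1 culture, adjusted p up to 0.128), *Wars1* (culture s846, adjusted p = 0.0562), *Atf5* (culture s846, s855, s856 or s864, adjusted p up to 0.189) and *Mthfd2* (culture s846, s850, s855 or s864, adjusted p up to 0.0828).

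Of 47 cell cycle genes, 4 were higher, among them *Mcm5*, a part of the replicative helicase (0.58), and *Cdkn2c*, an inhibitor of CDK4 and CDK6 (0.51), and 2 were lower, the spindle checkpoint kinase *Bub1* (-0.88) and the centromeric histone *Cenpa* (-0.47). Of 30 lysosome genes and proteases, 2 were higher and 3 lower. The falls included *Mitf*, a factor that drives lysosomal genes (log2 fold change -0.67, standard error 0.12, adjusted p = 0.0148), and *Ctsc*, cathepsin C (-0.48), and *Gusb*, the lysosomal glucuronidase, rose by 0.59. Leaving out 1 culture took the adjusted p above 0.05 for *Mcm5* (culture s846, s855 or s864, adjusted p up to 0.0846), *Cdkn2c* (culture s846, s850 or s855, adjusted p up to 0.107), *Bub1* (culture s846 or s855, adjusted p up to 0.121), *Cenpa* (culture s846, s855 or s864, adjusted p up to 0.0943), *Ctsc* (culture s846, s855 or s864, adjusted p up to 0.0687) and *Gusb* (culture s846, s855 or s856, adjusted p up to 0.126). Of 20 chemokines, 1 was lower, *Ccl17*. Without culture s846, 0 cell cycle genes, 0 chemokines, and 1 lysosome gene passed. 0 members passed among 76 cytosolic ribosomal proteins (median 0.12), 74 nuclear-encoded genes of the respiratory chain (median 0.13), 7 mitochondrially encoded genes (median 0.29), 23 heat shock and unfolded protein genes (median 0.05) and 12 interferon-inducible GTPases in edgeR. At an unadjusted p under 0.05 these held 9, 4, 2, 1 and 4 higher and 3, 1, 0, 2 and 0 lower members, in that order, and DESeq2 passed 2 mitochondrially encoded genes higher and 1 heat shock gene in each direction. Of the 7 mitochondrially encoded genes, 2 were higher in all 5 cultures, among them *mt-Cytb*, which did not pass (log2 fold change 0.62, standard error 0.17, adjusted p = 0.0683). In culture s856 *mt-Cytb* was nearly flat, at 1237 CPM in ctrl and 1241 CPM in 24h. The median log2 change of the 7 genes was -0.66 in that culture.

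Whether the WT change also occurred in cells labelled as lacking CACNB3 was read from 10 further libraries of 5 cultures labelled *Cacnb3*-KO, called s843, s851, s852, s853 and s865. By the methods of the study these mice were on C57BL/6N, so genotype and substrain cannot be told apart. *Cacnb3* itself had 1029 ± 196 CPM (mean ± SD, n = 5) in their libraries named ctrl and 1268 ± 115 CPM in those of WT, so counts over the whole gene do not check the genotype labels. Of genes tested there 1.11% were called by the rule used for WT. Of the 122 genes called in WT BMDCs, 105 were tested in *Cacnb3*-KO BMDCs, where 93 had a change of the same sign and 37 also passed an adjusted p of 0.05 in that direction (8.54% of genes passed there in either). By direction that share was 4.34% higher and 4.2% lower. By the rule used for WT, 22 of the 105 were called there with the same sign. Of 40 called rises 38 were higher, and of 65 called falls 55 were lower. How often genes at large kept their sign between genotypes was not tested, so these sign counts have no background share. *Clec2l* fell by 2.0 (adjusted p = 0.00266), *Ch25h* rose by 1.88 (adjusted p = 0.00315), and *Plet1* had a log2 fold change of -0.90 (adjusted p = 0.0550). Of 32 glycolysis and hypoxia genes, 18 were lower and 1 higher there (4.2% of all genes lower), with a median of -0.58, and 0 of them passed the test of a difference between genotypes.

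A test of whether the genotypes changed unequally called 16 of 13536 genes (0.118%), among them 2 that were called in WT, *Btla* and *Pgf*. *Btla*, whose WT values are given above, had 0.925, 2.29, 0.775, 1.67 and 0.603 CPM in the libraries named ctrl and 1.65, 4.32, 1.27, 3.06 and 1.01 CPM in those named 24h in *Cacnb3*-KO cultures, where it rose (adjusted p = 0.0347, difference 2.13 on the log2 scale, standard error 0.22, adjusted p = 0.00101). *Slfn4*, an interferon-induced gene of the Schlafen family, had 49, 10.5, 40.4, 17.9 and 4.33 CPM in the libraries named ctrl and 44.6, 9.38, 20.3, 12.3 and 3.99 CPM in those named 24h in WT and 5.46, 7.17, 4.57, 5.96 and 4.09 CPM in the libraries named ctrl and 41.2, 25.1, 16.8, 29.6 and 8.85 CPM in those named 24h in *Cacnb3*-KO cultures. WT cultures differed widely and overlapped between the sets, while each *Cacnb3*-KO culture had its higher value in the library named 24h (difference 2.45 on the log2 scale, standard error 0.29, adjusted p = 0.00296).

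Of the other genes named from this test, these are known as interferon-stimulated: *Ifi206* (difference 2.97), *Ifi205* (2.68), *Rtp4* (2.05), *Oas2* (1.70) and *Slfn1* (1.63). In *Cacnb3*-KO cultures *Rtp4* ranged from 2.63 to 5.52 CPM in the libraries named ctrl and from 10.3 to 36.7 CPM in those named 24h. In WT cultures it ranged from 1.61 to 23.4 and from 3.37 to 35.8 CPM. *Slfn1* ranged from 1.86 to 3.33 and from 5.25 to 13.7 CPM in *Cacnb3*-KO. Its WT values ran from 2.06 to 32.5 and from 1.95 to 30.1 CPM. *Ifi206* and *Ifi205* lay at 0.645 CPM or below in every *Cacnb3*-KO library named ctrl. *Plac8* (1.82), *Cxcr5*, the receptor of CXCL13 (1.64), and *Orm1*, an acute phase protein (1.38), were called too, as was *Ly6i* (2.12). *Ifi205* and *Ifi206*, and *Slfn1* and *Slfn4*, have close relatives in the genome between which the counting could split reads. Of 61 interferon-stimulated genes tested in WT BMDCs, 3 were higher and 1 lower, at a median of 0.18. The number higher was 6 without culture s850, 9 in DESeq2 and 13 with 0p5h in place of ctrl. The 3 were *Usp18* (0.73), *Mx1* (0.38) and *Ifi209* (0.45), the 1 *Samd9l* (-0.64), and without culture s846 none of these passed (*Usp18* (culture s846, s855, s856 or s864, adjusted p up to 0.124), *Mx1* (culture s846, s855, s856 or s864, adjusted p up to 0.136), *Ifi209* (culture s846, s850, s855 or s864, adjusted p up to 0.175) and *Samd9l* (culture s846 or s864, adjusted p up to 0.0634)). In *Cacnb3*-KO BMDCs, 40 of 58 were higher (4.34% of all genes higher) and 0 lower, at a median of 0.83, and 7 passed the test of the difference between genotypes. WT culture s846 had a median change of 0.63 over this list, and the other 4 WT cultures between -0.13 and 0.14.

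The number called moved with the pairing and with single cultures. Without the culture as a block 0 genes were called in edgeR (658 had an unadjusted p under 0.05), and DESeq2 with the block called 50. Without WT culture s855 the number called was 6, without *Cacnb3*-KO culture s853 also 6, without s852 8, and without s865 44. *Btla*, *Slfn4*, *Ifi206*, *Ifi205* and *Oas2* kept an adjusted p under 0.05 with each culture left out, whereas *Rtp4*, *Slfn1*, *Plac8*, *Cxcr5*, *Pgf*, *Orm1* and *Ly6i* exceeded it without 2 or more of them (up to 0.134). Mitochondrial shares in the libraries named 24h of *Cacnb3*-KO cultures ranged from 3.21% to 16.5%, and the part of this in the difference was not tested.

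**Figure D5:**
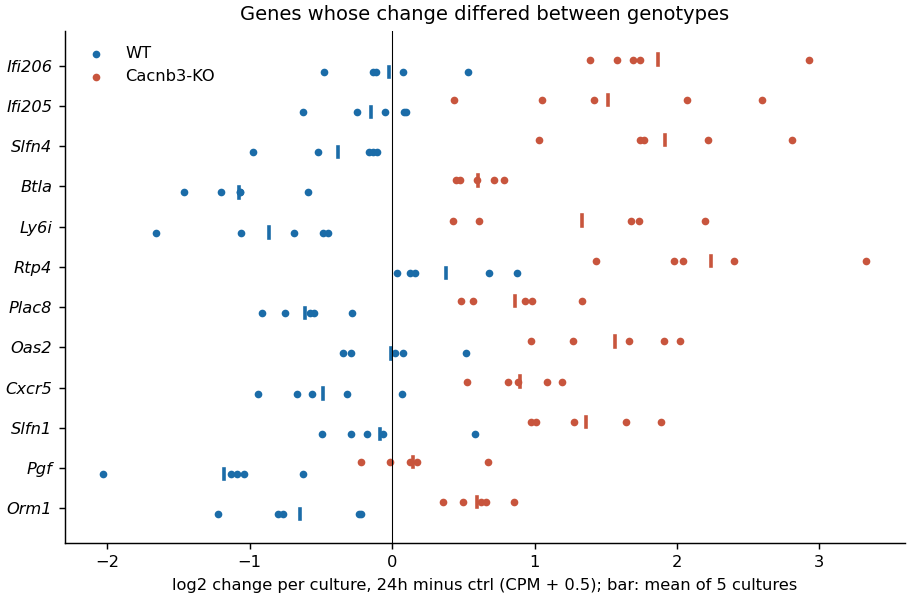
Log2 change from ctrl to 24h (x axis) in each of 5 WT and 5 *Cacnb3*-KO cultures (points, with a bar at the mean of 5) for 12 genes whose change differed between genotypes (y axis). For each of the 12 genes, all points of *Cacnb3*-KO cultures lie to the right of all WT points.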

How the data were processed

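Poly(A) RNA of BMDCs was sequenced, and the deposited table holds whole-number counts of reads per gene, which the authors made with STAR 2.4 on mm10 (submitters' processing notes) and featureCounts 1.5.1 on Ensembl release 79 (per the file headers), with no strand option and no multi-mapped or overlapping reads counted. The methods of the study name another build and a stranded kit, and this conflict was not resolved. Of 43629 genes, 38984 had a symbol from the GENCODE annotation.

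Libraries named ctrl and 24h of the 5 WT cultures were compared with edgeR 4.0.16 in R 4.3.3 (quasi-likelihood test, TMM, filterByExpr, culture as a block), and standard errors follow from the log2 fold change and its F. The culture number was treated as a pair because the comparison is defined that way. In 5 of 5 cultures the libraries of a culture deviated together from their set means (r from 0.45 to 0.769). Deviations from a set mean cancel out over its cultures, so the median of -0.277 between cultures is no independent comparison. The difference between genotypes was an interaction term over 20 libraries. Library depth was 12988438 to 26425018 counts. Changes per culture used a pseudocount of 0.5 CPM.

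Named were the 12 largest called rises and falls with 1 direction in 5 cultures and a mean of 1 CPM, the 5 of lowest p in each direction, called and up to 4 further members of each list, defining members of a list, and genes whose change differed between genotypes. *Slc7a2*, *Nos2* and *Gm26902* were added after their values were seen. The members and lists were chosen with earlier results of these data known. Tested on simulated counts for the WT comparison, with 200 of 13176 genes changed, the blocked fit recovered 98.5% with 2 false calls and the unblocked fit 81.5%. Of genes given the smaller of the sizes of change used, these fits recovered 98% and 68%. All sizes used lay above the 2-fold minimum, and recovery of smaller ones was not tested. A changed gene was given the same change in every culture, and culture effects had the same spread for all genes. In the data the unblocked fit kept 2 of the 122 calls, so these rates need not hold there. With a GC trend added to the simulated counts the blocked fit recovered 89.5% with 698 false calls, and 98% with 2 once the trend was removed. Alternatives were DESeq2 1.42.0, limma-voom 3.58.1, other size factors, no filter, no block, all 15 WT libraries, 0p5h as the reference, a GC correction, each culture left out, and, chosen after seeing the data, cultures s850 and s864 left out together. Results for some genes are not reported here.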

Additional observations from a re-analysis of the deposited data

Results flagged for a closer look

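Of 106 groups of 5 values tested, 8 held a value that stood far from the other 4, where chance gives about 1 in 20. In the libraries named 24h, *Ch25h* was at 26.7 CPM in culture s856 against 8.49 to 11.8 CPM in the others. *Npy* was highest in culture s864 in both sets, at 4.88 CPM in ctrl against 0.613 to 1.66 CPM and at 11.6 CPM in 24h against 1.82 to 4.42 CPM. The log2 change of *Lepr* was -2.66 in culture s856 against -1.61 to -1.28, and that of *Cd14* was -2.82 in culture s864 against -1.46 to -1.03. In the library named ctrl of culture s856, *Scd2* was at 245 CPM against 151 to 176 CPM and *Marchf1* at 42.9 CPM against 28.5 to 30.7 CPM. The total count of the library named ctrl of culture s864 was 18424736, against 25178670 to 26425018 in the others.

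The change was more positive in *Cacnb3*-KO than in WT cultures, by edgeR's test of that difference, for the interferon-stimulated genes *Slfn4* (2.45), *Ifi206* (2.97), *Ifi205* (2.68), *Oas2* (1.70), *Rtp4* (2.05) and *Slfn1* (1.63), all on the log2 scale. It was so too for *Btla* (2.13), *Ly6i* (2.12), *Plac8* (1.82), *Cxcr5* (1.64), *Pgf* (1.46) and *Orm1* (1.38), with adjusted p between 0.00101 and 0.0369 over the 12. Without the replicate block the lowest adjusted p among them was 0.753.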

How the results depend on the processing

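The WT counts of 52 higher and 70 lower genes depended most on the pairing: without the replicate block they were 0 and 2. With no filter on low counts they were 91 and 116, with no fold minimum 317 and 480, and without cultures s850 and s864 130 and 114. With 0p5h in place of ctrl 175 were lower. With 1 culture left out the numbers ranged from 26 to 71 higher and from 43 to 78 lower. DESeq2 (50 and 78) and limma-voom (54 and 72) stayed close. With the GC correction they were 62 and 83, and the genes passing the adjusted p alone went from 797 to 1247. The 16 genes differing between genotypes became 0 without the block, 50 in DESeq2 and 129 with no filter, and 6 to 44 with 1 culture left out. Of the 159 genes given alternatives, *Cd44* and *P2rx7* changed sign, and neither passed under any alternative. *Cd44* was at -0.0871 against 0p5h and ranged from -0.057 to 0.146 with 1 culture left out, and *P2rx7* from -0.359 to 0.0941, and at 0.262 without cultures s850 and s864. The adjusted p exceeded 0.05 for *Egln3*, *Cth* and *Id1* in DESeq2, for *Pfkm* and *Pgam1* in limma-voom, for *Cd200r1* and *Ccr2* with the GC correction, and for *Ccrl2* and *Ackr3* with all 15 WT libraries. With 0p5h as the reference it did so for 19 genes, among them *Samd9l*, *Ifi209*, *L1cam*, *Klf10*, *Fdps*, *Ly6i*, *Pgam1* and *Nos2*. The cause was not tested. Depth limits genes under 1 CPM, which made up 23 of the 122 calls.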

Other observations

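The following genes were picked after their values were seen. *Fpr2*, a receptor of formylated peptides, went from 24.3 ± 3.78 to 11 ± 3.31 CPM (mean ± SD, n = 5, log2 fold change -1.17, standard error 0.17, adjusted p = 0.00697, edgeR). *Dcstamp*, which serves the fusion of osteoclasts and giant cells, went from 75.4 ± 22.2 to 31.2 ± 6.69 CPM (log2 fold change -1.23, standard error 0.15, adjusted p = 0.00400). *Gas6*, the ligand of the TAM receptors for dying cells, went from 2.74 ± 3.42 to 5.38 ± 4.28 CPM (log2 fold change 1.20, standard error 0.27, adjusted p = 0.0338), and *Fgfr3*, a receptor of fibroblast growth factors, from 1.73 ± 0.873 to 4.52 ± 1.43 CPM (log2 fold change 1.43, standard error 0.24, adjusted p = 0.0111). The adjusted p exceeded 0.05 with 1 culture left out for *Gas6* (culture s846, s850, s855 or s856, adjusted p up to 0.115).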
